A study of Homo sapiens with 12 samples.

Results

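Transcript levels of 10 genes of the BCL2 family were followed in 12 RNA sequencing libraries of HL60/S4 cells treated with TNF-α or vehicle. The genes were the rows of the deposited count table whose Ensembl identifiers map to *BCL2*, *BCL2A1*, *BCL2L1*, *MCL1*, *BCL2L11*, *BID*, *BBC3*, *PMAIP1*, *BAX* and *BAK1*, which are 10 of the 58288 genes counted. All 10 passed the filter on low counts in every comparison. HL60/S4 is an established line of promyelocytic leukemia cells that grows in suspension and takes on a granulocytic form with all-trans retinoic acid (ATRA). Each of 4 groups held 3 libraries: undifferentiated promyelocytes given water as vehicle, undifferentiated promyelocytes given TNF-α at 16 ng/mL, and granulocytes, made with 1 µM ATRA over 4 days, given either. Treatment lasted 2 h in medium with added calcium in all groups, and every culture came from the same seed lot at passage 8, so the groups stand for 1 leukemia line and not for donors. Flasks were treated separately, and the p-values given below measure the spread between these flasks. Promyelocytes and granulocytes were treated in separate experiments, at different cell densities and with ATRA kept in the granulocyte medium. For a level or a response compared between them, cell type cannot be told apart from experiment or these conditions.

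Proteins of this family decide whether the outer membrane of the mitochondrion stays closed. BAX and BAK, the effectors, form pores in that membrane through which cytochrome c escapes and starts the caspase cascade. BCL2, BCL-XL (the main product of *BCL2L1*), MCL1 and BFL-1 (A1, the product of *BCL2A1*) hold the effectors and their activators in check. The BH3-only proteins BIM (*BCL2L11*), BID, PUMA (*BBC3*) and NOXA (*PMAIP1*) carry the death signal, by binding the anti-apoptotic members or the effectors. In neutrophils MCL1 and A1 are known as short-lived survival factors, and *BCL2A1* is a classic target of NF-κB, the transcription factor that TNF-α activates. TNF-α receptors can also reach this family through caspase-8, which cleaves BID.

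Positions are given on hg38 as counted by the authors. *BCL2A1* is a short gene on the minus strand of chromosome 15 (79960889 to 79971446), with 1089 bases of exon. *BCL2*, at the other extreme, spans 63123346 to 63320128 on chromosome 18 and has 11765 bases of exon, so a read count cannot be compared between the genes without dividing by length. Stretches before a start site are shown for 4 members, 3 that rose in both cell types and *BAX*, which moved little. They were taken from RefSeq (GRCh38.p14), run 5′ to 3′ on the strand of the gene, and lie outside the exons that were counted, except for the 30 bases of *BCL2A1*, which fall in a longer first exon of that annotation. Capitals mark GAGGAAGT, a purine-rich motif of the kind that ETS factors bind, or CACGTG, an E-box. The *BCL2A1* piece is at chr15:79971357-79971386 (minus strand), that of *BID* at chr22:17774043-17774292 (minus strand), that of *PMAIP1* at chr18:59899746-59899947 (plus strand) and that of *BAX* at chr19:48954625-48954814 (plus strand).
BCL2A1: aatcacaggatGAGGAAGTggcttctctga
BID: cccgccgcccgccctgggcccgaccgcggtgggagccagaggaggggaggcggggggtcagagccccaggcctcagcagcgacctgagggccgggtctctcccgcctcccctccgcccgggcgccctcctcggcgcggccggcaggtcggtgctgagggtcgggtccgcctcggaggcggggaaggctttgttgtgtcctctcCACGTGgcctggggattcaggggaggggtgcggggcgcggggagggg
PMAIP1: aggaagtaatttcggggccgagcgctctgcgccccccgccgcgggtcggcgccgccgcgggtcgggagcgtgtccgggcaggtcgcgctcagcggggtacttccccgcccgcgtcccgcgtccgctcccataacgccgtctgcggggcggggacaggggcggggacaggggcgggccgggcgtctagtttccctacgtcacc
BAX: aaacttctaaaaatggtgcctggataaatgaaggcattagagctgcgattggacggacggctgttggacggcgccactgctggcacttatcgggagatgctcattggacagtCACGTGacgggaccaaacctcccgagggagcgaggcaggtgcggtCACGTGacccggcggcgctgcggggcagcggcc
GAGGAAGT began 179 bases before the *BCL2A1* start site, and 2.59% of 35116 RefSeq promoters of the same 300 bases (250 before and 50 after the start) held it on either strand. CACGTG was found 4 times before the *BAX* start, of which 2 fall in the piece shown, and 7.26% of promoters held it. Among the other members, GAGGAAGT also began 8 bases after the *BAK1* start and CACGTG 232 bases before that of *BBC3*. TGANTCA, the motif of AP-1 factors, was searched as well and found in *BBC3* alone, against 7.71% of promoters. The *PMAIP1* promoter held none of these motifs. A consensus site for NF-κB was found in none of the 14 promoter entries of the 9 members in the table, against 11.3% of all promoters searched. GAGGAAGT, CACGTG and TGANTCA were picked after these sequences had been read, and a match or its lack is a description of these letters only. *MCL1* was not in the table of promoters.

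TNF-α raised most of the 10 genes in both cell types, and *BCL2* alone among them fell in both. In promyelocytes 6 of the 10 genes rose, 1 fell and 3 did not pass the test (edgeR quasi-likelihood test, Benjamini-Hochberg adjusted p under 0.05 over all genes). Among all genes tested in promyelocytes 14.8% passed, 8.15% upward and 6.65% downward. In granulocytes 9 of the 10 rose and 1 fell, where 49.2% of all genes passed, 24.4% upward and 24.8% downward. The median log2 fold change of the 10 genes was 0.48 in promyelocytes, where that of all genes tested was -0.0094, and 0.72 in granulocytes, where it was -0.0047. TNF-α and vehicle libraries did not overlap for 9 of the 10 genes in promyelocytes, as for 30.9% of all genes, and for 10 of the 10 in granulocytes, as for 55.1%. For 3 libraries against 3 the smallest two-sided p of an exact permutation test is 0.1. A call for a single gene therefore rests on edgeR's model of the counts, which also shares information on their spread across genes. Levels below are CPM, read counts scaled to library size with the TMM factors of all 12 libraries, while fold changes come from the fit of each cell type. In bulk RNA, fewer cells of a type and less RNA per cell cannot be told apart.

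**Figure D1:**
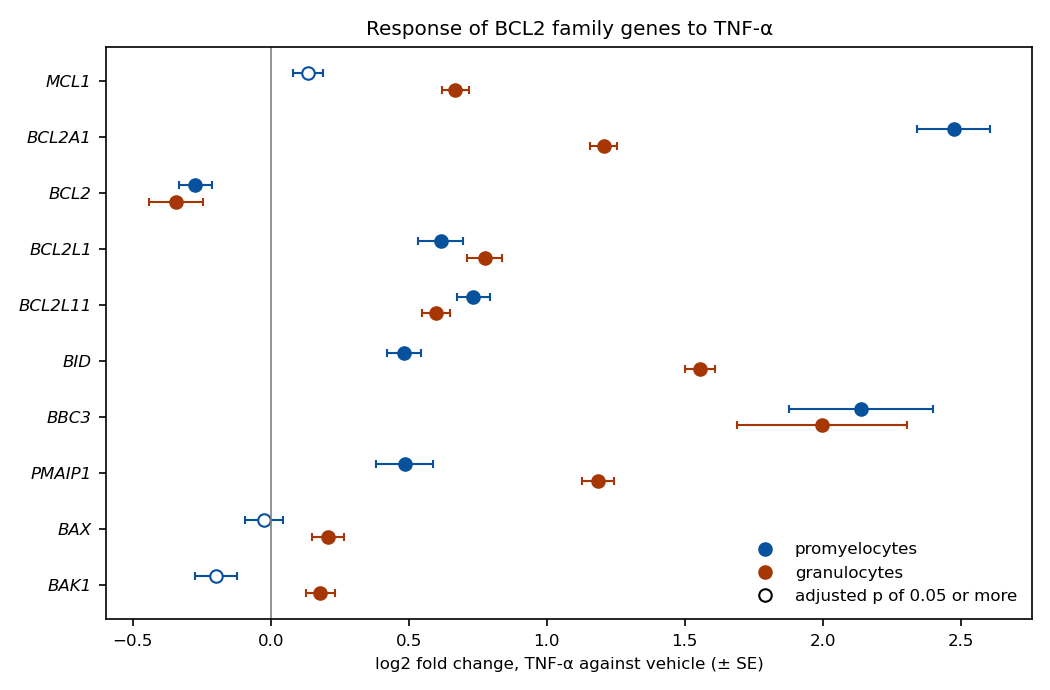
Log2 fold change of each BCL2 family gene after TNF-α against vehicle, with its standard error, in promyelocytes (blue) and granulocytes (brown), from 3 libraries against 3. Open circles did not pass the test. *BCL2* lies left of 0 in both cell types, *BCL2A1* and *BBC3* lie farthest right in promyelocytes (2.47 and 2.14), and *BAX* and *BAK1* stay within 0.21 of 0.

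*BCL2A1* had the largest fitted response of the family in promyelocytes. Its level was 4.08, 2.91 and 4.94 CPM in the vehicle libraries and 21.1, 22.4 and 21.97 CPM after TNF-α. All TNF-α libraries lay far above all vehicle libraries, in which the gene had 79 to 143 counts. This was a 5.56-fold rise (log2 fold change 2.47 ± 0.13, edgeR adjusted p = 1.76e-11; the error of a log2 value is its standard error throughout). Granulocytes with vehicle already stood at 79.2, 76.3 and 72.7 CPM, above every TNF-α treated promyelocyte library. With TNF-α they reached 183, 174 and 175 CPM, again without overlap. That rise was 2.31-fold (log2 fold change 1.21 ± 0.05, edgeR adjusted p = 1.03e-21). As a fold change it was smaller than in promyelocytes by 1.23 ± 0.13 log2 units (adjusted p = 3.01e-08 for the interaction). In CPM the gain was larger in granulocytes, which started from a higher level.

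*MCL1*, which encodes an anti-apoptotic protein that is degraded quickly, was the most highly expressed member per length in promyelocytes. Vehicle-treated promyelocytes had 169, 164 and 157 CPM and TNF-α treated ones 173, 181 and 175 CPM. The groups did not overlap, but the log2 fold change of 0.14 ± 0.055 did not pass the test (edgeR adjusted p = 0.113). Granulocyte libraries held 292, 313 and 313 CPM with vehicle and 494, 496 and 485 CPM with TNF-α, far apart relative to their spread. There *MCL1* rose 1.59-fold (log2 fold change 0.67 ± 0.049, edgeR adjusted p = 2.65e-14). The response differed between the cell types by 0.57 ± 0.071 log2 units (adjusted p = 8.02e-07 for the interaction).

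*BCL2L1*, whose main product BCL-XL is long-lived beside MCL1, rose in both cell types. The promyelocyte libraries were at 19.7, 17.5 and 18.1 CPM with vehicle and at 26.6, 26.4 and 30.5 CPM with TNF-α. In granulocytes they were at 29.6, 26.9 and 31.4 CPM with vehicle and at 51.1, 51.9 and 48.5 CPM with TNF-α. The treated libraries were the higher ones in each cell type, with no overlap. The fitted rise was 1.53-fold in promyelocytes (log2 fold change 0.62, edgeR adjusted p = 1.53e-05) and 1.71-fold in granulocytes (0.78, edgeR adjusted p = 4.45e-13). Their difference of 0.20 log2 units had a 95% interval of -0.01 to 0.40 (1.96 standard errors), and did not pass the test (edgeR adjusted p = 0.191). *ABALON*, an antisense RNA that covers 43.0% of the exon bases of *BCL2L1*, had 1 to 7 counts per library, and counting was by strand. Counts are per gene and do not separate splice forms, of which *BCL2L1* and *MCL1* are known to have pro-apoptotic ones.

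*BCL2*, the founding member and an oncogene of lymphoma, fell slightly. Vehicle-treated promyelocytes had 141, 137 and 141 CPM, and TNF-α treated ones 117, 106 and 117 CPM. Every treated library lay below every vehicle library, a fall to 0.827 of the vehicle level (log2 fold change -0.27 ± 0.059, edgeR adjusted p = 0.00273). Granulocytes had 11.6, 13.5 and 13.4 CPM with vehicle and 10.7, 10.8 and 9.14 CPM with TNF-α, from 202 to 407 counts per library. These groups did not overlap either, although the nearest libraries were close (10.8 and 11.6 CPM), and the log2 fold change was -0.34 ± 0.098 (edgeR adjusted p = 0.00360). The difference between the responses was -0.03 log2 units (95% interval -0.23 to 0.17, edgeR adjusted p = 0.861).

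The make-up of the anti-apoptotic transcripts was compared per length, as CPM per kilobase of exon (RPKM). In promyelocytes with vehicle the 4 genes summed to 58.4 ± 1.72 RPKM (SD, n = 3), of which *MCL1* made up 63.9% ± 1.83, *BCL2* 20.3% ± 0.470 and *BCL2A1* 6.24% ± 1.58. TNF-α brought the sum to 78.5 ± 1.22 RPKM. In these libraries the share of *BCL2A1* was 25.6% ± 0.494 and that of *BCL2* 12.3% ± 0.793, so the order of the pair was exchanged. Granulocytes with vehicle summed to 150 ± 1.03 RPKM, made up almost wholly of *MCL1* (46.7% ± 1.80) and *BCL2A1* (46.6% ± 1.94), with *BCL2* at 0.727% ± 0.0594. With TNF-α the granulocyte sum was 291 ± 5.21 RPKM. *BCL2A1* then led with 55.9% ± 0.639 of the sum, ahead of *MCL1* with 38.6% ± 0.535. The 4 groups did not overlap in the summed level. These sums describe transcripts and not protein. The length used was that of all annotated exons of a gene merged, so shares and ranks between genes depend on the annotation.

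**Figure D2:**
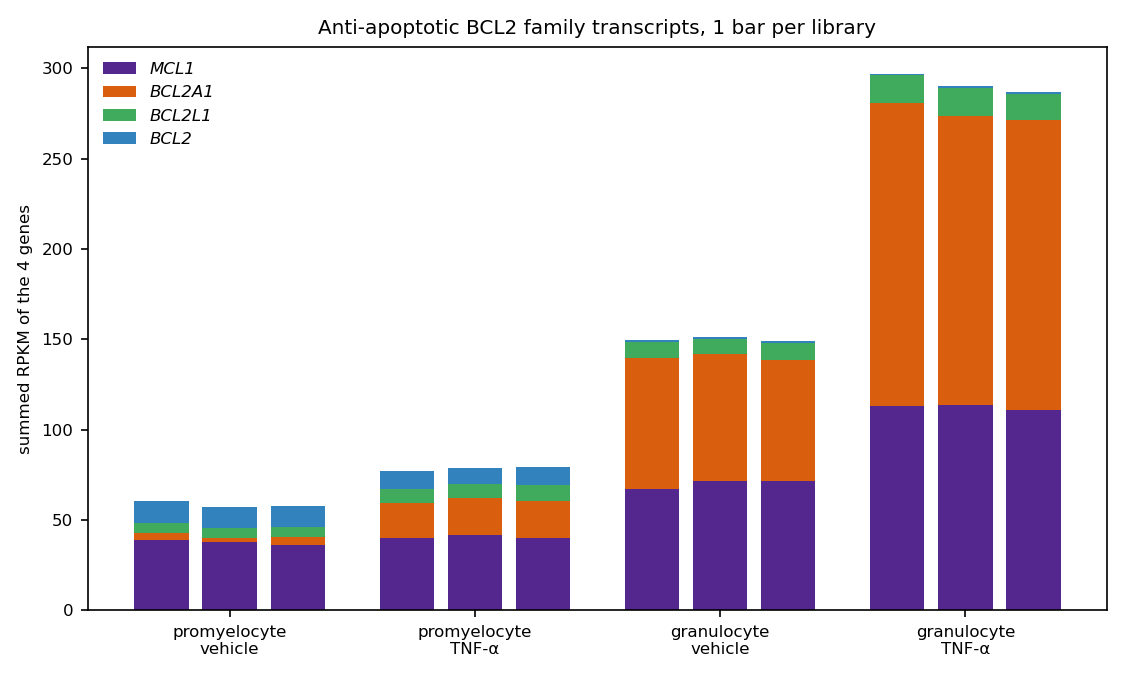
Summed RPKM of *MCL1*, *BCL2A1*, *BCL2L1* and *BCL2* (vertical axis), stacked by gene, with 1 bar for each of the 12 libraries in 4 groups. The bars grow from 57.1 to 60.4 RPKM in promyelocytes with vehicle to 287 to 297 RPKM in granulocytes with TNF-α, the *BCL2A1* part grows in each step, and the *BCL2* part is barely visible in granulocytes.

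All 4 BH3-only members rose in both cell types, where 8.15% of all genes rose in promyelocytes and 24.4% in granulocytes. *BID*, whose protein is cleaved by caspase-8 below death receptors, had the smallest adjusted p of the family in granulocytes. There the vehicle libraries had 55.4, 52.4 and 55.8 CPM and the TNF-α libraries 171, 160 and 154 CPM. The groups were widely separated, and the rise was 2.94-fold (log2 fold change 1.56 ± 0.053, edgeR adjusted p = 1.77e-24). Promyelocytes went from 67.7, 65.5 and 61.0 CPM to 83.7, 93.1 and 90.2 CPM. This smaller rise, also without overlap, was 1.40-fold (log2 fold change 0.48, edgeR adjusted p = 9.70e-06). The difference of 1.11 ± 0.084 log2 units passed the test (adjusted p = 1.05e-10 for the interaction).

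*PMAIP1* encodes NOXA, the BH3-only protein that binds MCL1 and A1. Its level in promyelocytes was 16.6, 13.2 and 12.5 CPM with vehicle and 19.6, 20.9 and 17.8 CPM with TNF-α. The highest vehicle library lay only a little below the lowest treated one (16.6 against 17.8 CPM), and the log2 fold change was 0.49 ± 0.10 (edgeR adjusted p = 0.00222). Granulocytes had 47.8, 45.6 and 43.4 CPM with vehicle and 96.2, 109 and 109 CPM with TNF-α. The treated libraries were all well above the others, a 2.28-fold rise (log2 fold change 1.19 ± 0.058, edgeR adjusted p = 1.27e-19). The rise was larger in granulocytes by 0.74 ± 0.12 log2 units (adjusted p = 3.21e-05 for the interaction).

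*BBC3* encodes PUMA, which binds all anti-apoptotic members. It was the least abundant gene of the family, with 13 to 21 counts in vehicle-treated promyelocytes and 64 to 97 after TNF-α. On the CPM scale the libraries were at 0.686, 0.478 and 0.622 with vehicle and at 2.41, 2.32 and 3.06 with TNF-α. Granulocytes stood at 0.423, 0.596 and 0.503 CPM with vehicle (11 to 18 counts) and at 2.40, 1.61 and 2.26 CPM with TNF-α (45 to 53 counts). In neither cell type did the groups overlap. The rise was 4.40-fold in promyelocytes (log2 fold change 2.14 ± 0.26, edgeR adjusted p = 4.79e-06) and 3.99-fold in granulocytes (standard error 0.31 log2 units, edgeR adjusted p = 1.03e-06). At these counts the difference between the responses was -0.10 log2 units with a wide 95% interval of -0.90 to 0.70 (edgeR adjusted p = 0.896). The microRNA gene *MIR3191* shares 2.39% of the *BBC3* exon bases on the same strand and had 0 counts.

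*BCL2L11* encodes BIM, an activator of the effectors that is induced when survival signals are withdrawn. Promyelocytes had 124, 116 and 121 CPM with vehicle and 211, 184 and 194 CPM with TNF-α. Granulocytes had 75.6, 78.8 and 77.4 CPM with vehicle and 122, 113 and 119 CPM with TNF-α, so that treated granulocytes overlapped untreated promyelocytes. The treated libraries were higher throughout. The gene rose 1.66-fold in promyelocytes (log2 fold change 0.73 ± 0.061, edgeR adjusted p = 2.15e-08) and 1.51-fold in granulocytes (0.60 ± 0.051, edgeR adjusted p = 1.37e-12). Their difference was -0.10 log2 units (95% interval -0.25 to 0.06, edgeR adjusted p = 0.417). Summed per length, the 4 BH3-only genes went from 39.1 ± 2.08 to 59.1 ± 0.916 RPKM in promyelocytes and from 44.4 ± 0.798 to 102 ± 0.802 RPKM in granulocytes.

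In granulocytes the effector genes had the smallest fold changes of the 10, and in promyelocytes neither passed the test. *BAX* had 39.9, 35.4 and 35.0 CPM in vehicle-treated promyelocytes and 34.3, 35.8 and 36.8 CPM after TNF-α, and these groups overlapped (log2 fold change -0.02, 95% interval -0.16 to 0.11, edgeR adjusted p = 0.867). In granulocytes *BAX* was at 42.2, 41.9 and 40.5 CPM with vehicle and at 50.2, 46.9 and 48.4 CPM with TNF-α, without overlap. This small rise had a log2 fold change of 0.21 ± 0.057 (edgeR adjusted p = 0.00262). *BAK1* had 51.8, 44.4 and 43.9 CPM in vehicle-treated promyelocytes and 35.9, 42.0 and 42.1 CPM after TNF-α. The treated libraries were lower, but the log2 fold change of -0.20 ± 0.076 did not pass the test (edgeR adjusted p = 0.0888). In granulocytes *BAK1* went from 64.1, 60.8 and 65.0 CPM to 72.4, 72.8 and 72.0 CPM, again without overlap. Its log2 fold change there was 0.18 ± 0.053 (edgeR adjusted p = 0.00461). Both granulocyte calls were lost when trends of the counts with GC content and with length were removed from the libraries: *BAX* then had a log2 fold change of 0.07 (edgeR adjusted p = 0.311) and *BAK1* one of 0.06 (edgeR adjusted p = 0.266). The exons of *BAX* are 60.7% and those of *BAK1* 58.8% GC. The pseudogene *BAK1P1* had 7 to 23 counts per library, and *BAK1* had 955 to 2031. How many reads match both was not tested.

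**Figure D3:**
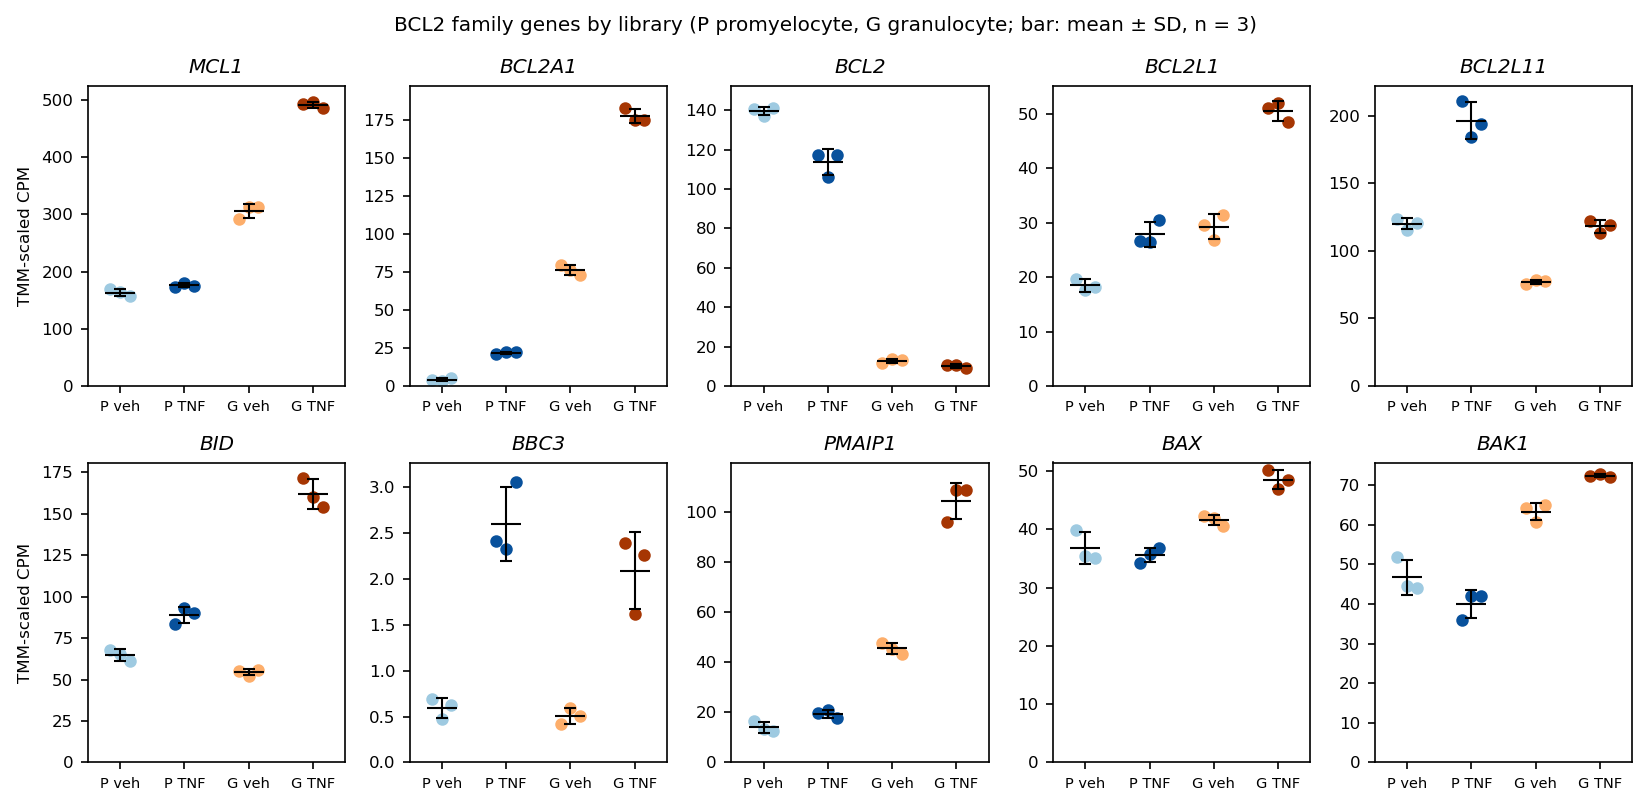
Level of each BCL2 family gene in CPM (linear axes from 0, scaled for each gene) in the 3 libraries of each group, with mean and SD; P is promyelocyte, G granulocyte and veh vehicle. *BCL2A1*, *BID* and *PMAIP1* are highest in granulocytes with TNF-α (means of 177, 162 and 105 CPM), as are *MCL1*, *BCL2L1*, *BAK1* and *BAX*. *BCL2* is high in promyelocytes alone, and *BAX* differs little between groups.

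The response to TNF-α differed between the cell types for 6 of the 10 genes, 5 with the higher value in granulocytes (*MCL1*, *BID*, *PMAIP1*, *BAX* and *BAK1*) and 1 with the higher value in promyelocytes (*BCL2A1*). Of all genes tested for this interaction 24.0% passed, 14.1% toward granulocytes and 9.88% toward promyelocytes. With DESeq2's size factors in place of TMM the split over all genes turned from 2561 toward granulocytes and 1790 toward promyelocytes into 2128 and 2266. Among the effectors, *BAK1* differed by 0.42 ± 0.096 log2 units (edgeR adjusted p = 0.00186) and *BAX* by 0.27 (standard error 0.089, edgeR adjusted p = 0.0278). Under the other settings the *BAK1* difference ran from 0.24 to 0.42 log2 units and kept its call. The *BAX* call did not hold with the size factors (edgeR adjusted p = 0.0743), with no filter on low counts (0.19 log2 units, edgeR adjusted p = 0.269), with DESeq2 (adjusted p = 0.0884), in a fit with a replicate block (edgeR adjusted p = 0.085), at a threshold of 0.01 or with the GC and length trends removed (0.05 log2 units, edgeR adjusted p = 0.695). It was also lost without replicate 1 of either promyelocyte group (edgeR adjusted p = 0.102 and 0.0638), and without each of the 3 vehicle granulocyte libraries or the first TNF-α granulocyte library in turn (edgeR adjusted p = 0.0510 to 0.0730). The interaction and the comparison of levels below share their vehicle libraries, and in both, cell type and experiment cannot be told apart.

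**Figure D4:**
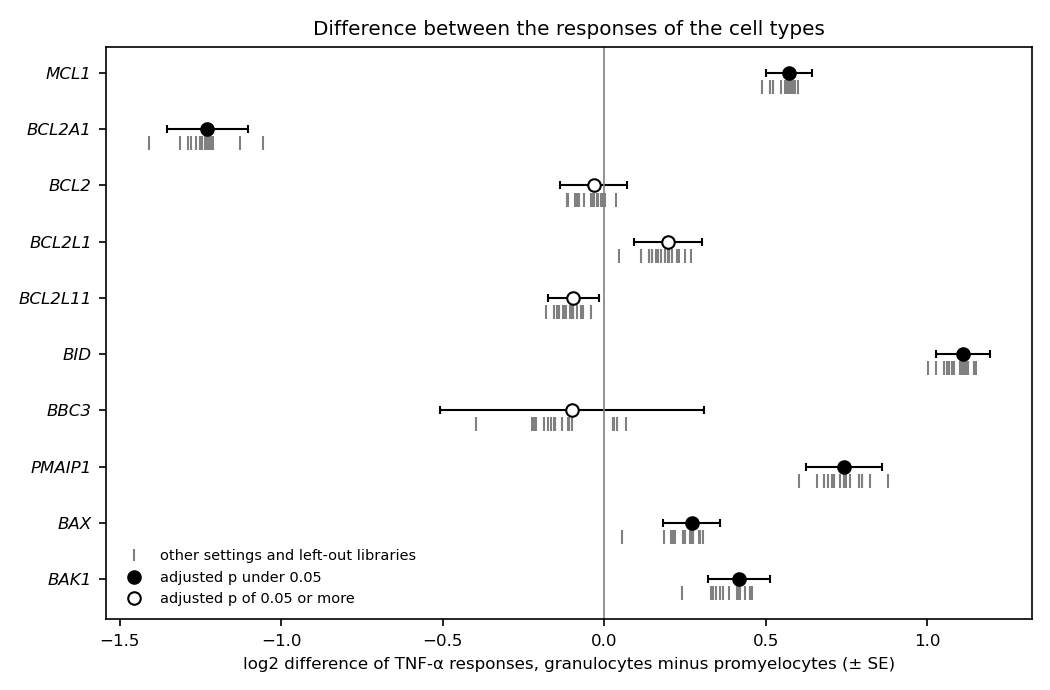
Difference of the log2 TNF-α responses, granulocytes minus promyelocytes, for each gene (circles with standard errors, filled where the test was passed), with grey ticks for the same value under other settings and with single libraries left out. *BCL2A1* lies at -1.23 and *BID* at 1.11 with all their ticks on the same side of 0, while the ticks of *BAX* reach down to 0.05 and those of *BCL2* and *BBC3* cross 0.

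Without TNF-α the family differed widely between the granulocyte and the promyelocyte libraries, which also differ in experiment, so that neither source of a difference can be named. Vehicle granulocytes had higher levels of 6 genes, lower levels of 3 and no called difference for *BBC3*, where 72.0% of all genes passed, 35.7% higher and 36.3% lower. The libraries of 9 genes did not overlap, as for 74.4% of all genes, so a difference in level was common among genes at large. *BCL2A1* was 19.0-fold higher in granulocytes (log2 fold change 4.25 ± 0.095, edgeR adjusted p = 1.48e-23). *BCL2* moved the other way, to 0.0921 of its promyelocyte level (-3.44 ± 0.071, edgeR adjusted p = 2.44e-24). *PMAIP1* was 3.22-fold higher (1.69, edgeR adjusted p = 8.37e-16) and *MCL1* 1.88-fold higher (0.91, edgeR adjusted p = 6.44e-15).

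Differences were smaller for the other members. *BCL2L1* was higher in granulocytes by 0.66 log2 units (edgeR adjusted p = 1.60e-08) and *BAK1* by 0.44 (edgeR adjusted p = 1.88e-06). Under the other settings the *BAK1* value ran from 0.21 to 0.47. *BCL2L11* was lower, at -0.64 (edgeR adjusted p = 9.91e-11), and so was *BID*, at -0.25 (edgeR adjusted p = 0.000664). *BAX* was 0.17 log2 units higher (edgeR adjusted p = 0.0156), a call lost with the GC and length trends removed, where the difference was 1.49e-05 log2 units (edgeR adjusted p = 1.0), and without vehicle promyelocyte library 2 (adjusted p = 0.0783) or 3 (adjusted p = 0.0886). The value for *BBC3* was -0.23 with a 95% interval of -0.87 to 0.42 (edgeR adjusted p = 0.546).

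Ranked by RPKM, vehicle-treated promyelocytes were led by *MCL1* (37.4 RPKM), followed by *BAK1* (21.1), *BCL2L11* (18.03), *BID* (14.6) and *BAX* (14.2). The last pair overlapped between libraries, as did *PMAIP1* (6.31) and *BCL2L1* (5.57), and *BCL2* lay between at 11.9 RPKM. *BCL2A1* was second to last at 3.65 RPKM and *BBC3* last at 0.187 RPKM. With TNF-α, *BCL2A1* rose to rank 3 in promyelocytes, at 20.1 RPKM, level with *BID* at 20.02, whose libraries overlapped it. In granulocytes with vehicle *MCL1* (70.1 RPKM) and *BCL2A1* (69.9 RPKM) overlapped at the top, and the next gene, *BAK1*, was at 28.6 RPKM. With TNF-α these leaders separated into *BCL2A1* at 163 and *MCL1* at 112 RPKM. *PMAIP1* (46.8 RPKM) and *BID* (36.4 RPKM) then lay above *BAK1* (32.7 RPKM). *BCL2* was second to last in both granulocyte groups, at 1.09 and 0.867 RPKM.

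Among 13 other genes of the family 9 were expressed enough to test. In promyelocytes 1 of them rose, where 14.8% of all genes passed, and in granulocytes 3 rose and 1 fell, where 49.2% of all genes passed. *BMF*, a BH3-only gene, rose in both, from 6.30 ± 0.997 to 15.6 ± 1.61 CPM in promyelocytes (log2 fold change 1.33, SD, n = 3) and from 7.87 ± 0.757 to 19.0 ± 1.22 CPM in granulocytes (1.26). *BAD*, also BH3-only, rose in granulocytes by 0.39 log2 units and *BCL2L2*, which encodes the anti-apoptotic BCL-W, by 0.22. With the GC and length trends removed the *BAD* value was 0.19 and kept its call (edgeR adjusted p = 0.0348). In promyelocytes *BAD* did not pass the test (-0.05, edgeR adjusted p = 0.783). *BIK*, a further BH3-only gene, passed in neither promyelocytes nor granulocytes (edgeR adjusted p = 0.516 and 0.263). The *BCL2L2* call was lost without replicate 3 of either granulocyte group. *BNIP3L*, a receptor for the removal of mitochondria, fell there by 0.38. The median log2 fold change of the 9 was -0.03 in promyelocytes and 0.14 in granulocytes.

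Of 13 genes that act at or downstream of the pore, 2 rose and 1 fell in promyelocytes, and 6 rose and 2 fell in granulocytes, with medians of 0.04 and 0.13, again beside 14.8% and 49.2% of all genes. *HTRA2*, a mitochondrial protease released with cytochrome c, rose in granulocytes by 0.61 log2 units. *VDAC1*, an outer membrane channel, rose by 0.41, and *CYCS*, which encodes cytochrome c, by 0.39. *CYCS* also rose in promyelocytes, by 0.23 (edgeR adjusted p = 0.0112), a call lost without vehicle library 2 or TNF-α library 2. Of 10 genes that control turnover or anchoring of these proteins 9 were tested, of which 1 rose and 1 fell in promyelocytes and 5 rose and 1 fell in granulocytes, beside the same shares of all genes. *FBXW7*, a ubiquitin ligase subunit for MCL1, rose in granulocytes by 0.32 log2 units, while *BTRC*, another ligase subunit, fell by 0.31. *HUWE1*, the ligase MULE, rose by 0.16 and *TMBIM6*, which encodes BAX inhibitor 1, by 0.14. The *HUWE1* call was lost without vehicle granulocyte library 1, and that of *TMBIM6* without that library or the first TNF-α granulocyte library. In promyelocytes *FBXW7* rose by 0.21 (edgeR adjusted p = 0.0433), a call lost without replicate 1 or replicate 2 of either group.

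As a check of the stimulus, 6 of 6 known NF-κB targets rose in both cell types, by 1.91 to 6.22 log2 units in promyelocytes and by 2.41 to 8.31 in granulocytes. Over the 12 libraries, the genes whose log2 CPM followed *BCL2A1* most closely among 13803 genes were *CCL2* (Pearson r = 0.995), *MORC3* (0.994), *SNN* (0.994), *ITSN2* (0.993) and *REL* (0.992). The 12 points form 4 groups that differ strongly, so these correlations describe the order of the groups more than variation within them.

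The libraries held 22829189 to 31895061 read pairs counted on genes, and 3 counts, taken as the floor, corresponded to 0.0941 to 0.131 CPM (counting error only). Every member lay above that floor in every library. Summed levels of 8 granulocytic marker genes were 163 to 170 CPM in promyelocytes with vehicle, 269 to 285 CPM with TNF-α, 4991 to 5248 CPM in granulocytes with vehicle and 5581 to 5940 CPM with TNF-α. Those of 8 promyelocyte and myeloid markers were 7959 to 8873, 6583 to 7516, 2616 to 2837 and 2728 to 2999 CPM in the same order. *ELANE*, which marks promyelocytes, was low throughout, at 58 counts or fewer. Monocyte and macrophage markers (6 genes) summed to 3.90 to 4.77 CPM in promyelocytes with vehicle, 2.93 to 3.95 CPM with TNF-α, 49.2 to 51.4 CPM in granulocytes with vehicle and 30.5 to 34.2 CPM with TNF-α. Nearly all of the granulocyte level was *CSF1R*, with 3 of the 6 at or under the floor in all libraries. The lymphoid (5 genes) and the erythroid and megakaryocyte (5 genes) lists summed to at most 15.2 and 2.14 CPM. The list of fibroblast, epithelial and endothelial markers (6 genes) summed to at most 7.17 CPM, most of it *PECAM1*. *MS4A1*, *HBB*, *HBA1*, *PF4* and *COL3A1* were at 0. The part of these marker differences in the levels of the BCL2 family was not tested.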

How the data were processed

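The authors depleted ribosomal RNA, sequenced paired ends, aligned the read pairs to hg38 with STAR (version 2.5.3a per the labels) and counted them on GENCODE v27 genes with featureCounts (1.5.2), by strand. They deposited these raw counts without normalization. Gene symbols matched 57532 of 58288 identifiers, and the merged exon length of all 58288 genes in the annotation equalled the length in the table. Libraries were grouped by their titles. Counts were tested with edgeR 4.0.16 in R 4.3.3 (TMM, filterByExpr with a minimum count of 10 and total of 15, quasi-likelihood fit and test, Benjamini-Hochberg adjustment over all genes, threshold 0.05). Each cell type was fitted alone for TNF-α against vehicle. The interaction and the comparison of vehicle levels used 1 fit of all 12 libraries. The standard error of a log2 fold change is its size over the square root of F. CPM used TMM factors over the 12 libraries, and RPKM divided CPM by exon length in kilobases.

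The 10 genes, the other gene lists and the tests were chosen with earlier results of these data known, so they are descriptions and not independent evidence. Every member was named in every comparison, and of each other list up to 4 called genes with the smallest p in granulocytes. *BIK*, which was not called, was named beside them. Some genes that this rule names are not reported here. Alternatives were DESeq2 1.42.0, its size factors, no filter, a threshold of 0.01, the replicate number as a block, removal of GC and length trends, all 12 libraries in 1 fit, and leaving out each library. The procedure was tested on simulated data. Replicates differed from each other by 3.59 to 14.1 times the sampling noise, so no library is a copy of another. Library totals were 22829189 to 31895061 read pairs, and with 3 libraries per group the number of libraries limits the precision.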

Additional observations from a re-analysis of the deposited data

Results flagged for a closer look

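For 6 of the 10 genes the response to TNF-α differed between granulocytes and promyelocytes by the interaction test (edgeR, Benjamini-Hochberg adjusted p under 0.05), where 24.0% of all genes did. *BCL2A1* differed by -1.23 log2 units, the only negative value among the 6. The positive ones were *BID* (1.11), *PMAIP1* (0.74), *MCL1* (0.57), *BAK1* (0.42) and *BAX* (0.27). In each of these all 3 TNF-α treated granulocyte libraries lay above all 3 vehicle libraries, where 55.1% of all genes did not overlap. The granulocyte calls of *BAX* and *BAK1* were lost with the GC and length trends removed. The *BAX* interaction was lost under each of the other settings. The treated promyelocyte libraries lay above the vehicle ones for *BID*, *PMAIP1* and *MCL1*, below them for *BAK1*, and overlapped them for *BAX*. In promyelocytes 30.9% of all genes did not overlap.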

How the results depend on the processing

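The number of members called stayed at 7 to 8 in promyelocytes, 8 to 10 in granulocytes, 5 to 6 for the interaction and 8 to 9 for vehicle levels under all the alternatives run, and every change of a call concerned *BAX* or *BAK1*. *BAK1* in promyelocytes was called when all 12 libraries shared 1 fit (log2 fold change -0.22, edgeR adjusted p = 0.0259). Signs turned only for values that were not called. *BAX* in promyelocytes was 0.027 with the GC and length trends removed and -0.048 to 0.028 with a library left out. With a library left out, the interaction ran from -0.114 to 0.035 for *BCL2* and from -0.223 to 0.066 for *BBC3*. Over all genes, 1438 in place of 2405 were called in promyelocytes at a threshold of 0.01, 1598 without vehicle replicate 2, and 2843 in place of 4351 for the interaction at 0.01. At 0.01 the downstream list fell from 3 calls to 1 in promyelocytes and the turnover and anchoring list from 6 to 2 in granulocytes. In promyelocytes that list went from 2 calls to 1 at 0.01, with the block, with the trends removed and in 4 of the 6 fits that left out a library. Replicates shared only a number. Deviations of same-numbered vehicle and TNF-α libraries correlated at -0.146 to -0.0128. These values gave no sign of pairing, but with 3 libraries per group they cannot exclude it. A replicate block left 7 and 10 members called, 5 for the interaction and 9 for vehicle levels, *CYCS* and *FBXW7* in promyelocytes and *TMBIM6* in granulocytes were no longer called, and the turnover list had 3 calls in granulocytes. *BBC3*, with 11 to 97 counts, is the member whose precision depth limits.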
